A study of Mus musculus with 28 samples.

Results

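The proteins that hold, tag, partner or compete with the transcription factor NRF2 were followed here through the RNA of 10 mouse genes, Keap1, Cul3, Btrc, Nfe2l2, Nfe2l1, Bach1, Mafg, Mafk, Maff and Sqstm1, each taken as the row of the deposited table that carries its symbol. All 10 had such a row, out of 18463 symbols in 43143 rows. The data were RNA-seq values of 28 libraries of 3LL, a mouse Lewis lung carcinoma line: 12 libraries of cultured cells (4 WT, 4 KEAP1-KO and 4 DKO) and 16 libraries of subcutaneous tumors. The tumors grew in albino C57BL/6 male hosts, 6 weeks of age, and were taken at day 10. Experiment A paired 4 WT tumors in the left flank with 4 KEAP1-KO tumors in the right flank, and Experiment B paired 4 KEAP1-KO tumors on the left with 4 DKO tumors on the right. KEAP1-KO lines were grown from single colonies and carry a homozygous frameshift insertion in Keap1, and the sources used here do not say which line gave which library. DKO (KEAP1-NRF2 double knockout) was made from KEAP1-KO cells by frameshift edits in the gene of NRF2, again from a colony, so the DKO libraries carry the KEAP1 edit as well. According to the study, both flanks belonged to the same mouse. Genotype and flank changed together within each experiment.

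KEAP1 is the substrate adaptor that brings NRF2 to the CUL3 ubiquitin ligase, which keeps NRF2 short-lived until electrophiles or oxidants modify KEAP1. NRF2, once released, pairs with a small MAF protein on antioxidant response elements, where BACH1 can occupy the same sites as a repressor. The autophagy receptor p62 binds KEAP1 and carries it to autophagosomes, and beta-TrCP is the adaptor of a separate, KEAP1-independent ligase arm. KEAP1 loss is a recurrent lesion of lung cancers, which is the setting that the edited 3LL cells model.

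What each row measures limits what can be read from it. The Keap1 row was a gene row, whereas the other 9 were rows of 1 transcript each: 4 retained introns (Bach1, Sqstm1, Cul3 and Btrc), 3 processed transcripts (Nfe2l2, Mafg and Mafk) and 2 protein-coding transcripts (Nfe2l1 and Maff). For those 9 genes the values are therefore levels of 1 listed transcript, not of the gene's whole mRNA, and other transcripts of the genes were not analysed here, apart from 8 rows without a symbol that belong to Nfe2l1, Sqstm1, Cul3 and Btrc. In the GRCm38 annotation the Keap1 row covers chr9:21229730-21239361 on the minus strand. The Sqstm1 row is a 3-exon transcript of 582 bases at chr11:50202312-50206100 (minus strand), the Mafg row a 2-exon transcript of 412 bases at chr11:120631224-120633556 (minus strand), the Nfe2l2 row a 2-exon transcript of 1447 bases at chr2:75691052-75704489 (minus strand), and the Bach1 row a 4-exon transcript of 2210 bases at chr16:87699004-87722920 (plus strand).

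The promoters of Mafg, Sqstm1 and Bach1, each called, besides the edited Keap1, in 2 or more of the comparisons of adjacent genotypes, and of the NRF2 gene itself are shown because the antioxidant response element is the route by which NRF2 acts on a gene. Each run holds 250 bases before and 50 bases after an annotated start (RefSeq, GRCm38.p6), in the direction of the gene. The core TGACNNNGC was searched on both strands and its letters are in capitals. The windows are chr11:120633498-120633797 (minus strand) for Mafg, chr11:50210771-50211070 (minus strand) for Sqstm1, chr16:87698704-87699003 (plus strand) for Bach1 and chr2:75704614-75704913 (minus strand) for Nfe2l2.
Mafg: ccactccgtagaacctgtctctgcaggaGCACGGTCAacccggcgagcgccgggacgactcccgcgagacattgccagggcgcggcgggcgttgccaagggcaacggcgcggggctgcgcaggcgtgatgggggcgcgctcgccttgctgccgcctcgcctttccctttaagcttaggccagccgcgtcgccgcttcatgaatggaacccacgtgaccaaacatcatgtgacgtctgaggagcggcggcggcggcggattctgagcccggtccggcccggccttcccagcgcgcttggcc
Sqstm1: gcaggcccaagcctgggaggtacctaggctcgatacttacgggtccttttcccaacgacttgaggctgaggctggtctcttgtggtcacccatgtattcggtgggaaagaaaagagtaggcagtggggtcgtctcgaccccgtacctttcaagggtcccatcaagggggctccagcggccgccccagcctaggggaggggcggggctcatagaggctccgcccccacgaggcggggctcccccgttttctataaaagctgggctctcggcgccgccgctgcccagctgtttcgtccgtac
Bach1: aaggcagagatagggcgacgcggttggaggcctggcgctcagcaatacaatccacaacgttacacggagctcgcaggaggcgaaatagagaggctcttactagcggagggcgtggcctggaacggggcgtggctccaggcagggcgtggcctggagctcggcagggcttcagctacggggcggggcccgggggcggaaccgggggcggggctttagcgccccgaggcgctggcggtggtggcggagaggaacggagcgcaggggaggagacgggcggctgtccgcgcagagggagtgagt
Nfe2l2: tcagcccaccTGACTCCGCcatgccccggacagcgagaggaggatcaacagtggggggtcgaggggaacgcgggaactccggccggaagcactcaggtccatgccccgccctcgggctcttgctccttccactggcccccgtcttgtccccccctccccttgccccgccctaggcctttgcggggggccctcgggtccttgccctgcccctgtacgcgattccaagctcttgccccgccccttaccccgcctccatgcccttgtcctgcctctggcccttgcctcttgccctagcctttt

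Promoter windows were found for 9 of the 10 genes, 15 windows in all. The core was found in 4 of these windows, 1 each of Mafg, Nfe2l2, Mafk and Maff, against 12.4% of 32851 windows in the whole set. In Mafg the core TGACCGTGC lies on the opposite strand at positions -222 to -214 relative to the start, and in Nfe2l2 the core TGACTCCGC lies at -240 to -232. The core of Mafk, TGACACCGC, lies at -13 to -5 on the opposite strand, and that of Maff, TGACTCTGC, at -112 to -104. The palindrome TGANTCA was in none of the 15 windows and in 7.81% of all windows. A match is a description of the letters only, and the absence of one from the Sqstm1 and Bach1 windows says only that these letters do not occur there.

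Between 4222334 and 7524322 reads were recovered per library (median 5619790), with cell libraries deeper than tumor libraries at the group medians. Nqo1, a quinone reductase and standard readout of NRF2 activity, followed the labels in every library: normalized counts were 474 to 563 in WT cells, 5073 to 5943 in KEAP1-KO cells and 96.5 to 112 in DKO cells, and 93.2 to 129 in WT tumors, 3890.4 to 5816 in the 8 KEAP1-KO tumors and 34.1 to 72.0 in DKO tumors. The extraction text of the labels names liver, yet the hepatocyte gene Alb had a mean of at most 3.23 normalized counts in any group. Of the 4 listed epithelial markers, the keratin gene Krt8, which hepatocytes express too, had a group mean of 1681 or more, Krt18 9.87 to 170.5, Cdh1 0.55 to 18.7 and Krt19 1.18 to 9.17. The tumor libraries also hold host cells. The summed level of 5 leukocyte markers was 1736 to 2123 normalized counts in WT tumors, 376 to 451 in the KEAP1-KO tumors of Experiment A, 619.9 to 817 in those of Experiment B and 1161 to 1829 in DKO tumors, against 2.28 to 8.41 in cells. The sum of 11 macrophage and monocyte markers was 11.4 to 122 in cells, where Cd68 had a mean of 110.3 in KEAP1-KO and Adgre1 and Tyrobp were at 0 in every library, and 3552 to 11869 in tumors. Here a marker fell or rose if limma called it, by the rule given below. All 5 leukocyte markers fell in KEAP1-KO against WT tumors (7.49% of all rows fell). All 5 rose in DKO against KEAP1-KO tumors (4.22% of all rows rose). Of the macrophage markers 11 of 11 fell and 7 of 11 rose in these comparisons. The sum of 6 fibroblast markers was 4296 to 11373 in WT tumors, 1668 to 4468 in KEAP1-KO tumors of Experiment A, at most 3216 in those of Experiment B and 10359 to 14252 in DKO tumors (1 of 6 fell and 3 of 6 rose), and that of 5 skeletal muscle markers was at most 44.1 in WT and KEAP1-KO tumors and 21.3 to 293 in DKO tumors. The part of these markers in the tumor values below was not tested. In bulk tissue, fewer cells of a type and less RNA per cell cannot be told apart.

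**Figure D1:**
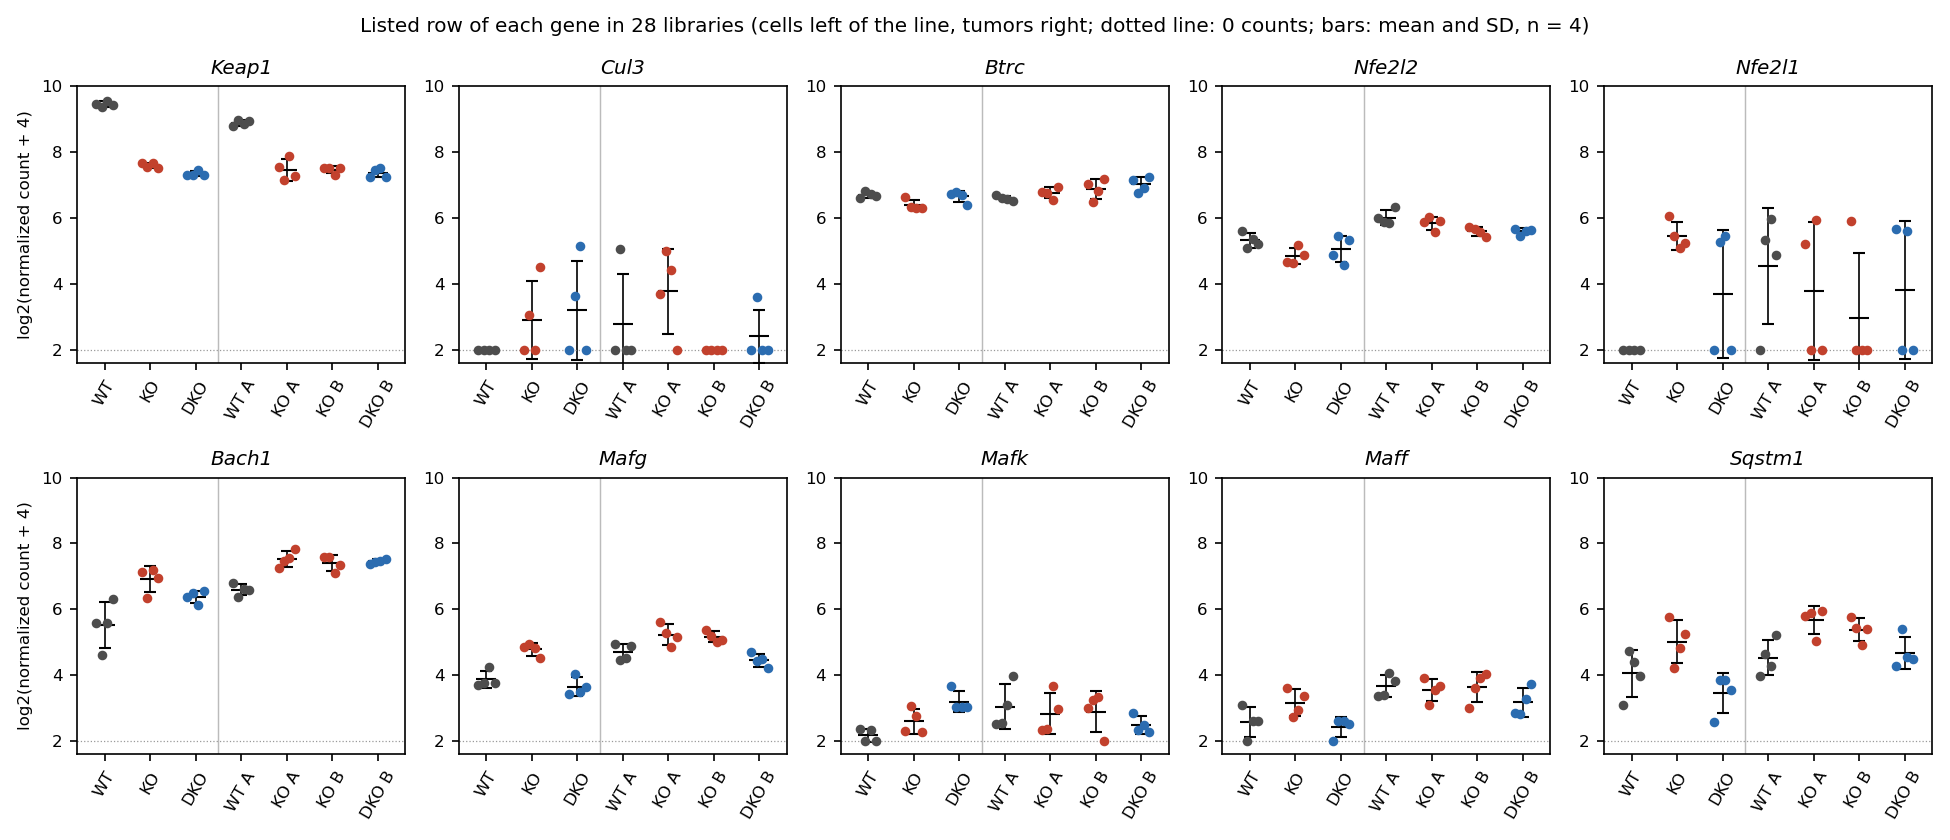
Deposited value, log2(normalized count + 4), of the listed row of each of the 10 genes (vertical axis) in every library, by group (horizontal axis; grey WT, red KEAP1-KO, blue DKO; A and B are the experiments). Points are libraries, bars are the mean and SD of 4, and the dotted line marks 0 counts. Keap1 sits between 8.78 and 9.56 in WT libraries and at or below 7.86 in all others, while Nfe2l1 and Cul3 switch between 0 and clear detection within groups.

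The comparisons of adjacent genotypes ask what follows KEAP1 loss and what follows NRF2 loss on top of it, in culture and in tumors. A row was called at a Benjamini-Hochberg adjusted p below 0.05 over all rows tested, by limma on the deposited log2 values. Of the 10 genes, 7 passed the low-count filter in cells (Mafk, Maff and Cul3 did not) and 10 in tumors. In KEAP1-KO against WT cells 4 of the 7 rows were called, where 15.5% of all 29744 rows were: Keap1 fell, and Bach1 and Mafg rose. The other is Nfe2l1, which would not have passed the filter without the libraries of KEAP1-KO cells. It stood at 0 in WT cells, so nothing is read from its call. Without it 3 of 6 rows were called. In KEAP1-KO against WT tumors of Experiment A 3 of 10 were called, against 13.1% of 34215 rows: Keap1 fell, and Bach1 and Sqstm1 rose. In DKO against KEAP1-KO cells 3 of 7 were called, 3 of 6 without Nfe2l1, against 8.83% of rows, and Mafg, Sqstm1 and Keap1 fell. In DKO against KEAP1-KO tumors of Experiment B 1 of 10 was called, against 8.86% of rows, and it was Mafg, which fell. The median difference of the 10 rows in tumors was 0.028 for KEAP1 loss (-0.027 over all rows) and -0.046 for NRF2 loss (0 over all rows). In cells that of the 7 tested rows, Nfe2l1 included, was 0.91 for KEAP1 loss (0.018 over all rows). For NRF2 loss it was -0.53 there (-0.028 over all rows). The same KEAP1-KO cell libraries stand in both cell comparisons, whereas the tumor comparisons share no library.

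Keap1, the edited gene and substrate adaptor, was at 705, 649, 751 and 680.2 normalized counts in the 4 libraries of WT cells, at 197, 183, 197 and 179 in KEAP1-KO cells and at 154, 153, 173 and 155 in DKO cells. WT tumors held 436, 501, 455 and 485, KEAP1-KO tumors 183, 136, 229 and 149.9 in Experiment A and 179, 177, 153 and 179.7 in Experiment B, and DKO tumors 148, 172, 179 and 148. Every edited library lay below every WT library. The KEAP1-KO mean was 27.1% of WT in cells (log2 difference -1.86, 95% interval -2.005 to -1.71, adjusted p = 2.2e-09) and 37.2% in tumors of Experiment A (-1.43, -1.71 to -1.15, adjusted p = 1.8e-06). The RNA was reduced and still present in KEAP1-KO, with 118 to 237 reads of the row per KEAP1-KO library.

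Keap1 was lower again in DKO than in KEAP1-KO cells, by a small step to 84.1% (-0.25, -0.39 to -0.10, adjusted p = 0.040), with no overlap between the groups. Leaving out any of 6 of the 8 libraries ended that call (adjusted p between 0.025 and 0.11 over the 8), namely KEAP1-KO replicates 1, 2 and 3 and DKO replicates 1, 2 and 4, and median centring, a fit without the trend and a fit of these groups alone ended it too. In tumors of Experiment B the difference was -0.091, with an interval of -0.37 to 0.19. The WT groups differed as well: WT tumors were 0.57 below WT cells on the log2 scale (adjusted p = 1.4e-04), and all other groups had overlapping neighbours in the order of levels. The difference between the WT groups depended on the scaling. It was -0.96 under median centring and -0.16 under quantile normalization, where it was not called (adjusted p = 0.33).

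Cul3, the scaffold of the KEAP1 ligase, was represented by a retained-intron row that was at 0 in 19 of 28 libraries. It was listed at 0 in all 4 libraries of WT cells and all 4 KEAP1-KO tumors of Experiment B. It reached 8.89, 27.8 and 17.4 normalized counts in 3 of the 4 KEAP1-KO tumors of Experiment A, 29.5 in 1 WT tumor, 8.24 in 1 DKO tumor, 4.37 and 18.8 in 2 libraries of KEAP1-KO cells and 8.41 and 31.4 in 2 of DKO cells. The row was not called in either tumor comparison, and the cell filter left it out. The 2 Cul3 rows without a symbol, both transcripts subject to nonsense-mediated decay, were not called in any of the 4 comparisons either.

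Btrc encodes beta-TrCP, the adaptor of the other ligase arm. Its row was at 92.4, 108, 102 and 97.6 normalized counts in WT cells, at 94.7, 76.9, 74.5 and 74.3 in KEAP1-KO cells and at 102, 106, 101 and 79.4 in DKO cells. The difference was -0.31 for KEAP1 loss in cells (-0.56 to -0.063, adjusted p = 0.092) and 0.26 for NRF2 loss (0.014 to 0.51, adjusted p = 0.22). Neither passed the test over all rows, and without KEAP1-KO replicate 1, the highest of its group, the first reached an adjusted p of 0.037. Over the 8 libraries left out in turn the adjusted p of the first ranged from 0.037 to 0.20. Tumor values ranged from 84.7 to 148, and the tumor differences were 0.16 (-0.15 to 0.47) in Experiment A and 0.15 (-0.16 to 0.46) in Experiment B. Of the 2 other Btrc rows, the processed transcript rose in KEAP1-KO against WT tumors by 0.52 (adjusted p = 0.047) and the retained intron did not pass (0.29, adjusted p = 0.31).

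Nfe2l2, the gene of NRF2, showed no called difference between adjacent genotypes. The row held 44.5, 30.2, 36.8 and 33.3 normalized counts in WT cells, 21.4, 21.0, 32.1 and 25.1 in KEAP1-KO cells and 25.4, 39.9, 19.9 and 35.9 in DKO cells. The groups overlapped, and the difference for KEAP1 loss was -0.48 (-0.95 to -0.017, adjusted p = 0.17). WT tumors held 59.3, 55.2, 53.0 and 76.4, KEAP1-KO tumors 54.5, 61.3, 43.5 and 55.5 in Experiment A and 48.9, 46.5, 43.6 and 38.4 in Experiment B, and DKO tumors 47.1, 40.2, 44.5 and 45.2. The interval of the DKO minus KEAP1-KO difference was -0.29 to 0.29 in tumors and -0.24 to 0.69 in cells. The row rests on 19 to 90 reads per library and is a short processed transcript, so it does not measure NRF2 protein or the edited coding message.

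Nfe2l1 encodes NRF1, the membrane-bound relative of NRF2 that drives proteasome genes. Its row was listed at 0 in all 4 libraries of WT cells and at 62.2, 39.3, 30.2 and 34.0 normalized counts in KEAP1-KO cells. Without the KEAP1-KO libraries it would not have passed the filter in cells, so its call there is not used. DKO cells were at 0, 34.7, 39.8 and 0. WT tumors were at 0, 36.2, 58.5 and 25.5, KEAP1-KO tumors at 33.3, 0, 57.0 and 0 in Experiment A and 55.9, 0, 0 and 0 in Experiment B, and DKO tumors at 47.1, 0, 44.5 and 0. The row was thus at 0 in 14 of the 28 libraries and at 25.5 or more in the other 14, within groups as well as between them, and its fitted log2 difference depends on the pseudocount. Of the 2 other Nfe2l1 rows, ENSMUST00000134951 was not called in any of the 4 comparisons and ENSMUST00000135836 was at 0 in 26 of 28 libraries.

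Bach1, the repressor that competes for antioxidant response elements, rose with KEAP1 loss in culture and in tumors. WT cells held 44.5, 20.5, 44.4 and 75.1 normalized counts, and KEAP1-KO cells 137, 76.9, 143 and 120.0. WT tumors held 108, 79.1, 95.04 and 91.7, and KEAP1-KO tumors of Experiment A 148, 172, 185 and 222. Neither pair of groups overlapped. The mean was 2.59-fold higher in cells (log2 difference 1.38, 0.73 to 2.03, adjusted p = 0.0067) and 1.94-fold higher in tumors (0.92, 0.64 to 1.21, adjusted p = 1.8e-04), and both calls held without any 1 of the 8 libraries.

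No fall of Bach1 with NRF2 loss was called, in tumors or in cells. DKO tumors held 161, 171, 172 and 181 normalized counts against 188, 189.9, 133 and 159 in KEAP1-KO tumors of Experiment B, a difference of 0.045 (-0.24 to 0.33, adjusted p = 0.90). They were above the WT tumors of Experiment A by 0.86 (0.57 to 1.14, adjusted p = 5.9e-04), where genotype cannot be told apart from flank or experiment. In cells DKO held 78.2, 86.2, 66.0 and 89.7, between the other groups: -0.53 against KEAP1-KO (-1.18 to 0.12, adjusted p = 0.37) and 0.85 against WT (0.20 to 1.503, adjusted p = 0.070). Whether NRF2 loss acted differently on Bach1 in tumors and in cells was tested by the interaction, which was 0.57 with an adjusted p of 0.48.

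**Figure D2:**
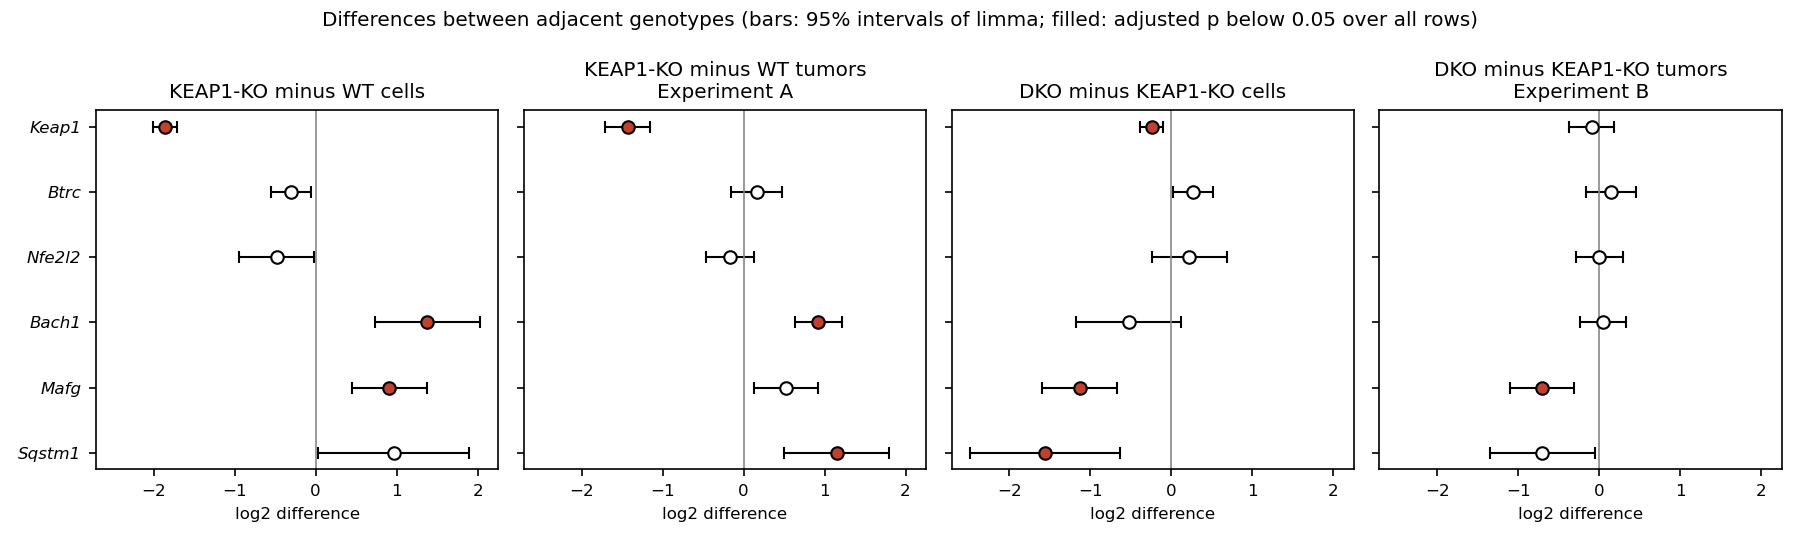
Log2 differences between adjacent genotypes (horizontal axis) for the 6 rows detected in every library (vertical axis), in cells and tumors. Points are limma estimates with 95% intervals, and filled points are called at an adjusted p below 0.05 over all rows. Bach1 lies to the right of 0 for KEAP1 loss and near 0 for NRF2 loss in tumors, while Mafg and Sqstm1 lie right of 0 in the first 2 panels and left of 0 in the last 2.

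The small MAF proteins are the obligate partners of NRF2 and of BACH1 and have no activation domain of their own. Mafg rose with KEAP1 loss in cells and fell with NRF2 loss in cells and in tumors. WT cells held 9.12, 9.71, 15.2 and 9.66 normalized counts, KEAP1-KO cells 25.1, 27.1, 24.5 and 18.8, and DKO cells 6.84, 12.6, 7.33 and 8.54. KEAP1-KO lay above both other groups without overlap. The difference was 0.91 for KEAP1 loss (0.45 to 1.37, adjusted p = 0.011) and -1.13 for NRF2 loss (-1.59 to -0.67, adjusted p = 0.0044), and DKO was not called against WT cells (-0.22, -0.68 to 0.24, adjusted p = 0.56).

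In tumors Mafg held 26.9, 18.1, 19.2 and 25.5 normalized counts in WT, 45.6, 34.7, 25.1 and 32.1 in KEAP1-KO of Experiment A, 37.9, 32.6, 28.4 and 29.4 in KEAP1-KO of Experiment B and 21.9, 17.5, 18.6 and 14.5 in DKO. All 4 DKO tumors lay below all 4 KEAP1-KO tumors of the same experiment, at 56.6% of their mean (-0.71, -1.10 to -0.31, adjusted p = 0.025). Leaving out KEAP1-KO replicate 1 or 2 or DKO replicate 2, 3 or 4 raised the adjusted p to between 0.050 and 0.078. KEAP1-KO and WT tumors of Experiment A overlapped, and their difference of 0.53 (0.13 to 0.92) was not called (adjusted p = 0.080). Without KEAP1-KO replicate 3, the lowest of its group, it was 0.65 with an adjusted p of 0.032. Over the 8 libraries left out in turn it was 0.40 to 0.65, with adjusted p from 0.032 to 0.23.

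Mafk and Maff were close to the floor, with at most 14 reads in any library. Mafk ranged from 0 to 1.14 normalized counts in WT cells, from 0.90 to 4.37 in KEAP1-KO cells and from 4.19 to 8.79 in DKO cells, and from 0 to 11.9 across tumors. Maff ranged from 0 to 4.56 in WT cells, from 2.62 to 8.36 in KEAP1-KO cells and from 0 to 2.10 in DKO cells, and from 3.09 to 12.8 across tumors. Neither row was tested in the cell fit. In tumors the differences were -0.20 (-1.05 to 0.64) and -0.41 (-1.25 to 0.44) for Mafk and -0.11 (-0.73 to 0.52) and -0.47 (-1.10 to 0.16) for Maff, in Experiments A and B, which were not distinguishable from 0 at this depth.

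Sqstm1 encodes p62, which sequesters KEAP1 in autophagic bodies and is itself a gene that NRF2 can induce. The row with the symbol held 4.56, 22.7, 17.3 and 11.8 normalized counts in WT cells, 50.2, 14.9, 24.5 and 34.0 in KEAP1-KO cells and 1.95, 10.5, 10.5 and 7.69 in DKO cells. DKO cells lay below all KEAP1-KO cells (-1.56, -2.49 to -0.63, adjusted p = 0.040), whereas KEAP1-KO and WT cells overlapped (0.96, 0.034 to 1.89, adjusted p = 0.17). In tumors it held 11.7, 21.0, 15.5 and 33.1 in WT and 52.2, 55.5, 29.0 and 58.4 in KEAP1-KO of Experiment A, where only KEAP1-KO replicate 3 fell within the WT range (1.15, 0.50 to 1.80, adjusted p = 0.019). KEAP1-KO tumors of Experiment B held 50.9, 39.1, 26.4 and 38.4 and DKO tumors 15.3, 38.1, 19.4 and 18.8 (-0.70, -1.35 to -0.057, adjusted p = 0.20).

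The calls on that row were near the threshold. With 1 library left out the difference stayed between 0.96 and 1.38 for KEAP1 loss in tumors and between -1.82 and -1.27 for NRF2 loss in cells. The call for KEAP1 loss in tumors was lost without WT replicate 1 or 3 or KEAP1-KO replicate 1, 2 or 4 (adjusted p 0.050 to 0.066), and the call for NRF2 loss in cells was lost without any 1 of 7 of the 8 libraries, all but KEAP1-KO replicate 2 (adjusted p up to 0.11). The 2 other Sqstm1 rows, also retained introns, gave more calls in tumors. ENSMUST00000154805 rose by 1.05 in KEAP1-KO against WT tumors (adjusted p = 0.0012) and fell by 0.90 in DKO against KEAP1-KO tumors (adjusted p = 0.0057), and ENSMUST00000147846 rose by 1.01 (adjusted p = 0.010) and was -0.75 (adjusted p = 0.071). In cells neither of them was called.

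The sum of the 3 Sqstm1 rows, an alternative added after the data were seen, was 61.9 to 88.3 normalized counts in WT tumors, 129 to 183 and 135 to 165 in the KEAP1-KO tumors of Experiments A and B and 62.5 to 107 in DKO tumors. Neither tumor comparison overlapped. It rose with KEAP1 loss by 1.13 in tumors (adjusted p = 3.3e-04) and by 0.80 in cells (adjusted p = 0.028), and fell with NRF2 loss by 0.86 in tumors (adjusted p = 0.0048) and by 0.97 in cells (adjusted p = 0.016). Both tumor calls held without any 1 library. In cells the rise was lost without WT replicate 1 or 4 or KEAP1-KO replicate 1 or 4 (lowest difference 0.64), and the fall was lost without KEAP1-KO replicate 4 (adjusted p = 0.051).

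**Figure D3:**
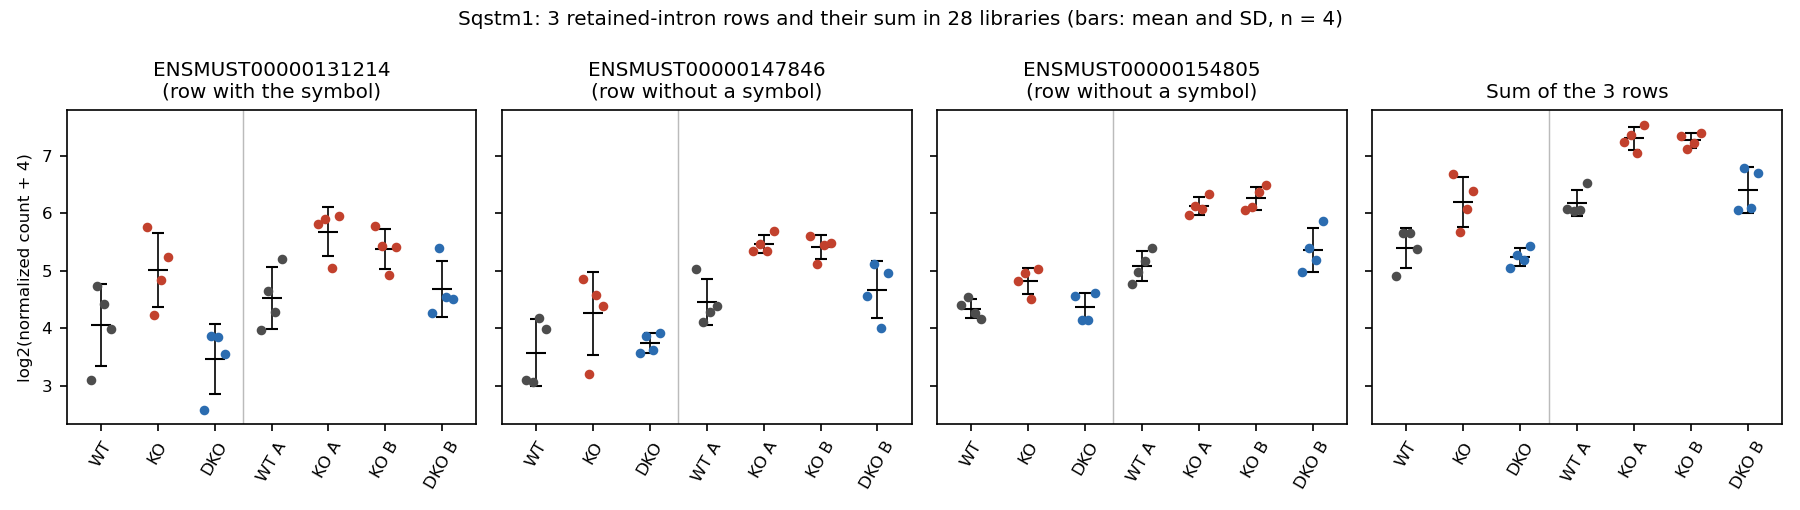
Deposited value, log2(normalized count + 4), of the 3 listed Sqstm1 rows and of their sum (vertical axis) in each library by group (horizontal axis; A and B are the experiments). Points are libraries and bars are the mean and SD of 4. At the group means of tumors all 3 rows are highest in the KEAP1-KO groups, and the sum separates the KEAP1-KO tumors, 7.06 to 7.55, from WT and DKO tumors, 6.04 to 6.80.

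Libraries with both genes edited were also set against WT. In DKO against WT cells 1 of the 7 tested rows was called (17.7% of all rows), and it was Keap1, which fell by 2.10 to 22.8% of the WT mean. In DKO tumors of Experiment B against WT tumors of Experiment A 2 of 10 were called (10.6% of all rows), Keap1 (-1.52) and Bach1 (0.86). The same genotype in both experiments gave a measure of experiment and flank together: of the 10 rows, 0 were called between the KEAP1-KO tumors of Experiments B and A (0.164% of all rows), and 1, Cul3, had an unadjusted p below 0.05 by limma, the only tool run.

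Tumors differed from cultured cells of the same genotype in many rows, and the tumor libraries hold host cells, whose part in the difference was not tested. In WT 6 of 10 rows were called (38.8% of all rows): Bach1 by 1.07, Mafg by 0.83 and Nfe2l2 by 0.69 were higher in tumors, and Keap1 was lower. The others were Maff (1.08) and Mafk (0.87). Both failed the filter in cells and passed it in this fit only through the tumor libraries, so nothing is read from their calls. In KEAP1-KO of Experiment A 3 were called (39.6% of all rows), with Nfe2l2 (1.01), Bach1 (0.61) and Btrc (0.37) higher in tumors. In DKO 6 were called (43.5% of all rows), with Sqstm1 (1.22), Bach1 (1.07), Mafg (0.80), Nfe2l2 (0.53) and Btrc (0.37) higher. The other was Maff (0.74), which passed the filter only through the tumor libraries here too, so nothing is read from its call. The median of all rows was itself higher in tumors, by 0.20, 0.16 and 0.23, and under quantile normalization and median centring only Bach1 in WT and DKO and Nfe2l2 in KEAP1-KO were called in both of those scalings among the rows named as higher here. The lower Keap1 of WT tumors was called under median centring (-0.96) and not under quantile normalization (-0.16, adjusted p = 0.33). Keap1 of KEAP1-KO tumors A (-0.37) and DKO tumors (-0.34) and Btrc of WT tumors (-0.49) were also called lower under median centring. Under quantile normalization these were -0.074, 0.052 and -0.25 and not called. Mafk was lower in DKO tumors than in DKO cells under both (-1.09 and -1.07, each with an adjusted p of 0.014), where the unscaled difference of -0.71 had an adjusted p of 0.094.

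The effect of each edit was compared between tumors and cells by interaction terms. For KEAP1 loss 0 of 10 rows were called (5.38% of all rows) and 3 had an unadjusted p below 0.05 by limma, Keap1, Nfe2l1 and Btrc. The fall of Keap1 was 0.43 smaller in tumors (adjusted p = 0.12). Under median centring the difference was 0.59 (adjusted p = 0.016), and under quantile normalization it was 0.083 (adjusted p = 0.86). The Btrc term was 0.63 under median centring (adjusted p = 0.041) and 0.49 under quantile normalization (adjusted p = 0.18). For NRF2 loss 0 of 10 were called (3.67% of all rows), and 1, Mafk, had an unadjusted p below 0.05.

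The genes around these members were read from lists. As for the members, a value is that of the listed row, which for many of these genes is 1 transcript and not the gene's whole mRNA. Most NRF2 targets followed genotype: 16 of 18 tested rows rose with KEAP1 loss in cells and 14 of 19 in tumors, where 8.13% and 5.61% of all rows rose, and 17 of 18 and 15 of 19 fell with NRF2 loss, where 4.85% and 4.64% of all rows fell. With KEAP1 loss 1 NRF2 target row fell in each setting (7.33% and 7.49% of all rows), and 0 rose with NRF2 loss (3.98% of all rows in cells, 4.22% in tumors). Gsta4, a glutathione transferase, was 4.25 higher on the log2 scale in KEAP1-KO than in WT cells and 4.75 higher in tumors. The list was chosen with earlier results of these data known, so its counts are a description of NRF2 output beside the members and not separate evidence.

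Genes of heme and iron handling that BACH1 represses moved in both directions in tumors. With KEAP1 loss 3 of 5 tested rows rose in cells and 0 fell, where 8.13% of all rows rose and 7.33% fell, and in tumors 3 of 9 rose and 3 fell, where 5.61% and 7.49% did. Blvrb, Hmox1 and Slc40a1 were read from retained-intron rows. The Blvrb row, of a biliverdin reductase, was 2.37 higher in cells and 2.79 higher in tumors. The Hmox1 row, of the heme oxygenase, rose by 1.79 in cells and fell by 0.80 in tumors, and the Slc40a1 row, of the iron exporter, fell by 1.61 in tumors. With NRF2 loss 4 of 5 fell in cells: Blvrb fell by 3.64, the processed transcript of Slc48a1, a heme transporter, fell by 2.98, and a protein-coding transcript of the ferritin heavy chain gene Fth1 fell by 1.97. In tumors 3 of 9 fell and 1 rose: Blvrb fell by 2.91, Fth1 fell by 1.58 and Slc40a1 fell by 1.28. The Slc40a1 row thus fell in tumors with KEAP1 loss and with NRF2 loss. Over all rows 4.85% fell in cells, and 4.64% fell and 4.22% rose in tumors. Hmox1 is also on the list of NRF2 targets.

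A further list held genes of partners of KEAP1 or of NRF2. Of its 15 tested rows, 4 rose and 3 fell with KEAP1 loss in cells (15.5% of all rows called), and 2 rose and 4 fell in tumors (13.1% of all rows called). The retained-intron row of Prdx1, a peroxiredoxin gene, rose by 1.06 in cells and 1.602 in tumors, and fell with NRF2 loss by 1.38 in cells and 1.55 in tumors. With NRF2 loss 1 of the 15 rows rose and 3 fell in cells (8.83% of all rows called), and 0 rose and 2 fell in tumors (8.86% of all rows called). Cdkn1a, the gene of the cell cycle inhibitor p21 (a gene row), rose by 1.53 in KEAP1-KO cells and fell by 0.65 in DKO cells, and the retained-intron row of Mad2l1, a spindle checkpoint gene, fell by 0.76 in KEAP1-KO cells. Of the autophagy machinery around p62, 0 of 14 tested rows rose and 1 fell with KEAP1 loss in cells (15.5% of all rows called), and 2 of 18 rose and 1 fell in tumors (13.1% of all rows called), a share near that of all rows. With NRF2 loss 1 of 14 rose and 2 fell in cells (8.83% of all rows called), and 0 of 18 were called in tumors (8.86% of all rows called), where 7 had an unadjusted p below 0.05 by limma. The retained-intron row of Map1lc3b, the gene of an autophagosome LC3 protein, rose by 0.60 in KEAP1-KO tumors, and the processed transcript of Ulk2, an initiating kinase, fell by 1.19. A transcript of Nbr1 that is subject to nonsense-mediated decay fell by 2.62 in DKO cells, and the gene encodes an autophagy receptor. Its mean log2 value was 5.78 in KEAP1-KO and 3.16 in DKO cells, and the difference had a standard error of 0.62.

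The other parts of the NRF2 ligase arms held 1 called rise and 1 fall among 11 tested rows with KEAP1 loss in tumors (13.1% of all rows called) and 2 rises among 9 in cells (15.5% of all rows called), shares near those of all rows. With NRF2 loss 1 of 11 rose in tumors (4.22% of all rows), and 0 of 9 were called in cells (8.83% of all rows), where 1 had an unadjusted p below 0.05 by limma. The processed transcript of Vcp, the gene of the segregase that extracts ubiquitylated proteins, rose by 0.39 in cells and 0.37 in tumors, and the retained-intron row of Trim21 fell by 1.57 in KEAP1-KO tumors and rose by 1.35 in DKO tumors. Among transcription factor relatives of NRF2 and the large MAF proteins, Maf fell by 1.73 and Nfe2 fell by 1.67 with KEAP1 loss in tumors, and Maf rose by 0.62 with NRF2 loss. The mean log2 value of Nfe2 was 3.82 in WT tumors and 2.16, near the floor, in KEAP1-KO tumors of Experiment A. Maf is a macrophage factor and Nfe2 is a factor of blood cells, and the leukocyte markers fell and rose in the same comparisons, a part that was not tested. In cells Maf fell by 1.05 with NRF2 loss.

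For each member called between adjacent genotypes, the rows most like it over the 28 libraries are given as a description. They were found by Pearson correlation among 12820 rows with a symbol. They share libraries and depth. Keap1 was most like Gm10855 (r = 0.98), Elovl7 (0.98) and Deptor (0.97). Mafg was most like Ralgps1 (0.89), Ampd3 (0.89) and Gdpd1 (0.89), Bach1 most like Gm38357 (0.88), Kdm5b (0.88) and 4930579C12Rik (0.88), and Sqstm1 most like Rhou (0.84), Por (0.84) and Fgf1 (0.81). Nfe2l1 had a lower best value, 0.64 with Cpeb3.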

How the data were processed

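RNA-seq was performed on 16 tumors and 12 cell libraries. According to the methods of the study, the authors depleted ribosomal RNA, made strand-specific libraries and quantified them with Salmon against GENCODE mouse transcripts. The deposited log2 values hold a normalized count with 4 added before the logarithm, a reading taken from the numbers themselves, although the study's methods speak of TPM, since undoing the transform gave whole reads over 1 factor per library for 100% of low values (tolerance 0.05). Groups came from the sample titles.

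Differences were fitted with limma 3.58.1 in R 4.3.3 (lmFit, eBayes with trend), with 1 fit each for tumors, cells and all 28 libraries, on rows that reached 5 normalized counts in 4 or more libraries, with Benjamini-Hochberg adjustment over all rows and a threshold of 0.05. Nothing in the labels says that the 4 cell libraries of a group were separate cultures, so their p-values measure only the spread between these samples. The script was tested on simulated data. Rows were matched by identifier to GENCODE vM21 (GRCm38; 95.9% found), which may differ from the authors' release. Named genes are every member, Nqo1, and the called genes of each list with the largest differences, at most 3 a list and comparison. The 3 most alike rows of each member called between adjacent genotypes are named too. The members, the lists and this rule were chosen with earlier results of these data known. Some genes of the lists are not reported here. Alternatives were a pseudocount of 1, no filter, a mean of at least 25 normalized counts, quantile normalization, median centring, no trend, only the groups compared, a replicate block, each library left out, an added log2 difference of at least 1 and, after seeing the data, the sum of each gene's rows.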

Additional observations from a re-analysis of the deposited data

Results flagged for a closer look

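In groups of 4 libraries, the gap of the highest or lowest library to its nearest neighbour was compared with the range of the group. By Dixon's critical value 10 of 67 groups of the member rows stood out. Chance gives about 1 in 20 for normally distributed values, a rate that does not apply to groups with libraries at 0 or with few reads. For Keap1 these were DKO cells replicate 3 (log2 value 7.47, others 7.30 to 7.31) and KEAP1-KO tumors B replicate 3 (7.30, others 7.50 to 7.52). For Sqstm1 it was KEAP1-KO tumors A replicate 3 (5.04, others 5.81 to 5.96), for Mafg WT cells replicate 3 (4.26, others 3.71 to 3.78) and for Btrc KEAP1-KO cells replicate 1 (6.63, others 6.29 to 6.34). Mafk in DKO cells replicate 1 (3.68) and Maff in DKO cells replicate 1 (2, the floor) rest on 9 and 0 reads. The others were single detected libraries among libraries at 0: Nfe2l1 in KEAP1-KO tumors B replicate 1 (5.90) and Cul3 in WT tumors A replicate 2 (5.07) and DKO tumors B replicate 2 (3.61).

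Hmox1, read from a retained-intron row and chosen here after its values were seen, moved in opposite directions with KEAP1 loss: it rose by 1.79 in cells (limma adjusted p = 4.1e-09) and fell by 0.80 in tumors of Experiment A (adjusted p = 0.038). The difference of these effects, tested as an interaction, was -2.59 (adjusted p = 5.8e-07). WT tumors were 2.62 above WT cells in this row. All 11 macrophage and monocyte markers fell in the same tumor comparison, where 7.49% of all rows fell. Their sums were 8381 to 11869 normalized counts in WT and 3552 to 4337 in KEAP1-KO tumors. The part of these markers in the Hmox1 values was not tested.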

How the results depend on the processing

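Counts of called member rows changed by more than 1.5 times as follows, and smaller changes are given for the stricter call and for single libraries left out. Without a filter, DKO against WT cells gave 2 (1 as reported). With a mean of at least 25 normalized counts, KEAP1-KO against WT cells gave 2 (4 as reported), DKO against KEAP1-KO cells 1 (3), DKO against WT cells 2, DKO B against WT A tumors 4 (2) and WT tumors against WT cells 3 (6), since fewer rows are tested. Quantile normalization gave 2 for WT and 2 for DKO tumors against cells (6 each), and median centring gave 3 for each and 2 for the KEAP1 effect between tumors and cells (0). Without the trend, DKO against KEAP1-KO cells gave 1. Requiring a log2 difference of at least 1 gave 0 for DKO against KEAP1-KO tumors, 2 in Experiment A (3 as reported), 3 in KEAP1-KO against WT cells, 2 in DKO against KEAP1-KO cells, 1 for DKO B against WT A tumors, and 2, 1 and 2 for WT, KEAP1-KO and DKO tumors against cells, and left 1976, 1181, 1357 and 723 called rows of all rows in place of 4483, 3031, 4599 and 2627 (Experiment A, Experiment B, KEAP1-KO against WT cells, DKO against KEAP1-KO cells). Summing the rows of each gene gave 2 for DKO against KEAP1-KO tumors and 2 for DKO against WT cells. Leaving out 1 library gave 0 to 1 for DKO against KEAP1-KO tumors, 1 to 2 for DKO against KEAP1-KO cells, 1 to 2 for DKO against WT cells, 2 to 4 in Experiment A, 4 to 5 for KEAP1-KO against WT cells, 5 to 7, 1 to 4 and 4 to 6 for WT, KEAP1-KO and DKO tumors against cells and 0 to 1 for the KEAP1 effect. The cause of these changes, other than fewer rows or samples, was not tested.

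In the 4 comparisons of adjacent genotypes the member differences whose sign turned were not called: Mafk in Experiment A under quantile normalization (0.015), Nfe2l1 and Cul3 in Experiment B as sums (-0.076 and -0.31), and with 1 library left out Maff in Experiment A (-0.22 to 0.046; 0.028 without WT replicate 3), and Nfe2l2 (-0.062 to 0.044) and Bach1 (-0.058 to 0.11) in Experiment B. In the other comparisons, sums turned the sign of uncalled differences of Nfe2l1, Btrc and Cul3.

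Same-numbered libraries did not deviate together (correlations -0.032 to 0.033). According to the study, each mouse carried both genotypes of an experiment. Which libraries share a mouse cannot be read from these correlations, and the main fit did not use the pairing. With the replicate number as a block, member calls were 3, 1, 4 and 2 for the comparisons of adjacent genotypes (Experiment A, Experiment B, KEAP1 loss and NRF2 loss in cells), rows called were 3757, 2491, 4063 and 2182, and the Sqstm1 difference between DKO and KEAP1-KO cells was -1.56 with an adjusted p of 0.083. In WT and DKO cells each library correlated best with its own number, at no more than 0.033. Depth limits Mafk, Maff and Cul3, whose rows rest on few reads or none.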

Other observations

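KEAP1 is 1 of a family of BTB adaptors that bring substrates to CUL3, and the other adaptors were read from a list of 37. With KEAP1 loss 2 of 22 tested rows rose and 6 fell in cells, where 8.13% of all rows rose and 7.33% fell, and 3 of 26 rose and 3 fell in tumors, where 5.61% and 7.49% did. With NRF2 loss 3 of 22 rose in cells (3.98% of all rows), and 3 of 26 rose and 2 fell in tumors (4.22% and 4.64% of all rows). Kbtbd8 rose by 0.91 and Kbtbd7 fell by 0.85 in KEAP1-KO cells, both gene rows. The protein-coding transcript of Klhl22 fell by 0.80 in KEAP1-KO cells and rose by 0.78 in DKO cells. In tumors of Experiment B the processed transcript of Klhl3 fell by 2.26 and the retained-intron row of Klhl36 rose by 1.98 with NRF2 loss. Each had a group near the floor, with mean log2 values of 2.48 for Klhl3 in DKO and 2.28 for Klhl36 in KEAP1-KO tumors. The other cullins held 1 called rise among 6 in KEAP1-KO cells (8.13% of all rows rose) and 1 fall in DKO tumors (4.64% of all rows fell), both of a Cul2 transcript subject to nonsense-mediated decay, which rose by 0.33 and fell by 0.39. With limma 0 of 6 were called in KEAP1-KO tumors (1 at an unadjusted p below 0.05, with 13.1% of all rows called) and 0 of 6 in DKO against KEAP1-KO cells (0 at that p, with 8.83% of all rows called).

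Enzymes that process NRF1 on its way from the endoplasmic reticulum to the nucleus were read from a list of 10 that also holds Btrc. With KEAP1 loss 1 of 7 tested rows rose and 2 fell in cells (15.5% of all rows called), and 2 of 9 rose and 1 fell in tumors (13.1% of all rows called). With NRF2 loss 2 of 7 rose in cells (8.83% of all rows called), and 0 of 9 were called in tumors (8.86% of all rows called), where 1 had an unadjusted p below 0.05 by limma. Ddi2, the gene of the protease that cleaves NRF1 (a gene row), fell by 0.51 in KEAP1-KO cells, rose by 0.24 in DKO cells and fell by 0.30 in KEAP1-KO tumors of Experiment A. The retained-intron row of Ngly1, whose enzyme removes the sugars of NRF1, fell by 0.56 in KEAP1-KO cells. Among 11 tested coregulators of NRF2, 1 rose and 2 fell with KEAP1 loss in cells (15.5% of all rows called), and 2 rose and 1 fell in tumors (13.1% of all rows called). With NRF2 loss 2 rose and 1 fell in cells (8.83% of all rows called), and 1 rose and 0 fell in tumors (8.86% of all rows called). Rara, the retinoic acid receptor alpha, rose by 0.43 with KEAP1 loss in cells and by 0.43 again with NRF2 loss, and fell by 0.24 with KEAP1 loss in tumors and rose by 0.36 with NRF2 loss there. The differences given for named genes in these paragraphs are log2 values called by limma over all rows.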
